A study of Homo sapiens with 7 samples.

Results

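Polycomb repressive complex 1 (PRC1) was examined here through 9 of its subunit genes, BCOR, BCORL1, CBX8, KDM2B, PHC2, PHC3, RYBP, SCML2 and YAF2, in Kasumi-1 cells depleted of PHF19. The members are genes to which the authors' annotation assigned at least 1 region of changed accessibility, so they were chosen by the authors' fold changes and false discovery rates (FDR) themselves. They held 15 of the 8815 listed regions. Accessibility had been measured by ATAC-seq, which marks open chromatin by inserting adapters with a transposase. The established line Kasumi-1 derives from an acute myeloid leukaemia and carries a RUNX1-RUNX1T1 fusion. The control group was 4 libraries of Kasumi-1 cells given a scrambled shRNA, and its treatment is labelled WT. The knockdown group was 3 libraries of the same line given a lentiviral shRNA against PHF19, from a vector with a U6 promoter, GFP and a puromycin marker. Cells of both groups went through puromycin selection at 2 µg/ml, begun 48 hours after the shRNA and lasting 24 hours or more, and 10000 cells entered each library. The labels name 1 cell line, no clone and no separate cultures, so the spread behind the authors' statistics may be technical.

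PRC1 is a ubiquitin ligase for histone H2A built around RING1 or RNF2. In canonical PRC1 a CBX protein reads H3K27me3, the mark written by PRC2, and PHC proteins polymerise and compact chromatin. In variant PRC1 the CBX position is taken by RYBP or its paralogue YAF2, and KDM2B, which binds unmethylated CpG-rich DNA, brings in a form that also holds BCOR or its paralogue BCORL1. PHF19 is an accessory subunit of PRC2, and so acts on the side of Polycomb that canonical PRC1 reads. The deposited values describe chromatin at these genes, and their RNA and protein were not analysed here. The knockdown itself is therefore not checked: PHF19 RNA was not measured in these libraries, and the PHF19 locus held 3 increased regions, of which the strongest promoter one went from 30.9 reads in the control to 72.7 in the knockdown (log2 fold 1.10). In a bulk culture, more open copies in each cell and more cells with the site open cannot be told apart.

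The values of single regions below come from the authors' deposited tables and are means over each group's libraries, with no value per library, no SD and no library depth. A level is the authors' mean normalised read count in a region. A fold is the deposited log2 fold, knockdown over control. The normalisation is not given in the sources used here. Coordinates are as deposited. The gene start of none of the 15 regions equalled that of GRCh38.p14, although the submitters' processing notes name hg38, and the coordinates are read here as hg19. The tables stop at an FDR of 0.05, and no increased region in them had a log2 fold below 0.586. A limit on the fold may therefore also have been applied. Regions of these genes that lay outside the lists, by either limit, were not analysed here.

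All 15 regions were more accessible in the knockdown, and 0 were less accessible. Of the 52675 regions the authors tested, 16.4% were listed as increased and 0.38% as decreased. Nothing is read from the members' own count, since being listed is what selected them. The deposited log2 folds ran from 0.62 at the CBX8 promoter to 1.32 far upstream of RYBP, with a median of 0.88, beside 0.97 over all 8615 increased regions. Control levels ran from 2.73 to 99.3 reads and knockdown levels from 11.4 to 160.0 reads. Promoters, defined in the deposited annotation as within 3 kb of a transcription start, held 10 of the 15 regions (66.7%), beside 50.1% of all increased regions. The other 5 were 4 intergenic regions and 1 intron, and 8 of the 9 genes had a promoter region, BCORL1 being the exception. The FDR was at most 0.01 in 4 of the 15 regions (26.7%), beside 45.9% of all increased regions. The regions nearest to the threshold were the one 36.2 kb upstream of RYBP, with an FDR of 0.0482, and the BCORL1 region, with 0.0458.

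**Figure D1:**
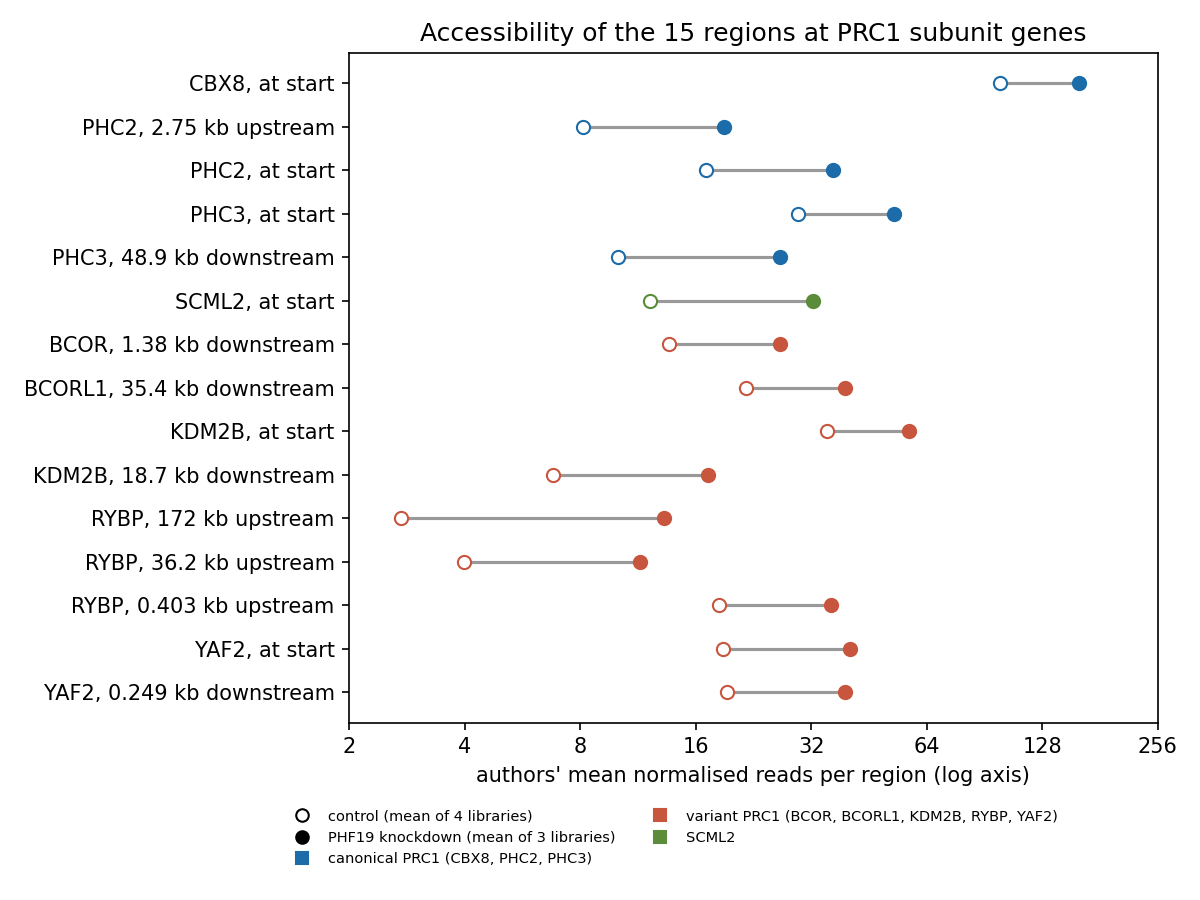
Authors' mean normalised reads (log axis) in each of the 15 regions, open circles for the control (4 libraries) and filled circles for the PHF19 knockdown (3 libraries), coloured by complex, with a grey line joining the 2 group means. Every filled circle lies to the right of its open circle, CBX8 has the highest levels (99.3 and 160.0 reads) and the RYBP region 172 kb upstream the longest line (2.73 to 13.2 reads).

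Promoter sequences are shown for the 4 members in which an increased region covered a transcription start that could be matched to a RefSeq one. A match required the lengths from start to gene end to agree within 150 bp, and the differences were 2 bp for PHC2, 1 bp for PHC3, 36 bp for SCML2 and 103 bp for YAF2. RefSeq windows of GRCh38.p14 reach from 250 bases before the start to 50 after it, and the first 280 bases are printed 5′ to 3′ on the minus strand, on which all 4 genes lie. With the deposited start set at the RefSeq start, the increased region covered 284 of the 300 window bases in PHC2, 266 in PHC3, 269 in SCML2 and 300 in YAF2. These counts leave out the differences in length just given. The printed stretches lie at chr1:33349870-33350149 for PHC2, chr3:170181704-170181983 for PHC3, chrX:18354659-18354938 for SCML2 and chr12:42238219-42238498 for YAF2. Capitals mark matches, on either strand, to the motifs named after the sequences.
PHC2: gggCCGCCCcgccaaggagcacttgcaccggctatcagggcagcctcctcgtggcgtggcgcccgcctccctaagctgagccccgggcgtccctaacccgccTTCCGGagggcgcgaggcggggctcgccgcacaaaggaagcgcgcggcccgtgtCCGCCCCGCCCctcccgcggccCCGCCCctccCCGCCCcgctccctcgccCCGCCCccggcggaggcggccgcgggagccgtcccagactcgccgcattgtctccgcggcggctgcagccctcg
PHC3: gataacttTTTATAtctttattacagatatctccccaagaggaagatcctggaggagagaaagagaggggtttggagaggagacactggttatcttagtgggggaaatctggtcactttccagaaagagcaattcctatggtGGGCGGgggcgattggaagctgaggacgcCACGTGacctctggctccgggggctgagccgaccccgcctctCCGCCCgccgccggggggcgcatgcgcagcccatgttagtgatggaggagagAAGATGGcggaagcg
SCML2: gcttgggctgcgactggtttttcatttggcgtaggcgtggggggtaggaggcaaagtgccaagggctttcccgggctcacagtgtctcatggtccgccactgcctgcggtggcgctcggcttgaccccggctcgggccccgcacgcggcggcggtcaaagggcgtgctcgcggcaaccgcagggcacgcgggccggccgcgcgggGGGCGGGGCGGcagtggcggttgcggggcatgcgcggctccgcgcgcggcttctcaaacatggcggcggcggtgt
YAF2: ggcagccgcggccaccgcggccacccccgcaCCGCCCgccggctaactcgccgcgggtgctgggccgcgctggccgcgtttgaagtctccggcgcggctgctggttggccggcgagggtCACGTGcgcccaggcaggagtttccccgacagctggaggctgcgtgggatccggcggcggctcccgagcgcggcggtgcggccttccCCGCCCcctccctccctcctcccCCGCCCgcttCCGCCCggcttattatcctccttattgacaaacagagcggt

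The 4 promoters differed in base composition. The PHC2, YAF2 and SCML2 windows held 48, 44 and 41 CG dinucleotides, more than 98.0%, 95.8% and 93.3% of the 35116 RefSeq windows respectively. The PHC3 window held 15, close to the median of 14 over all windows. GGGCGG, the core of the sites of SP and KLF factors, was in all 4, and 45.0% of all windows hold it. PHC2 had 6 matches, YAF2 4, and PHC3 and SCML2 2 each, with a pair of neighbours sharing a base in PHC2 and in SCML2. CACGTG, the E-box of MYC and MAX, was in PHC3, 79 bases before the start, and in YAF2, 131 bases before it, and 7.26% of all windows hold it. PHC3 also held AAGATGG, the YY1 core, just after the start (5.84% of windows) and TATAAA on the other strand 242 bases before it (11.5%). PHC2 held CCGGAA, the ETS core, on the other strand 148 bases before the start (17.2%). TGTGGT for RUNX factors (13.1%), TTCCCGC for E2F (6.55%) and TGACGTCA for CREB and ATF (1.85%) were in none of the 4 printed stretches. These are matches of letters in a window and say nothing of binding in Kasumi-1 cells. In all, 8 of the 9 members had a RefSeq window, CBX8 being the other, and the 14 windows of members had a median of 31.5 CG.

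Among canonical subunits, CBX8, PHC2 and PHC3 held 5 regions, of which 4 were promoters. CBX8, a chromodomain protein that reads H3K27me3, had the highest level of any member. Its promoter region, chr17:77770871-77771271, which ran from 356 bases before the start to 44 after it, had authors' means of 99.3 reads in the control and 160.0 in the knockdown. Its log2 fold of 0.62 (FDR 0.0220) was the smallest of the 15, and its mean over all libraries was above that of 99.8% of increased regions. Its promoter was therefore already highly accessible in control cells, and the listed change was a fold of 1.54 on the linear scale.

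PHC2, a sterile alpha motif protein that polymerises in canonical PRC1, had increased regions assigned to 2 separate starts, with 83.5 kb between the regions. At the start of its short transcript, chr1:33815466-33815866, the deposited table gives 17.0 reads in the control and 36.5 in the knockdown (log2 fold 0.91, FDR 0.00752). This is the CG-rich promoter printed above. At the long transcript the region lay 2.75 kb upstream of the start, chr1:33899368-33899768, with 8.12 and 19.0 reads (log2 fold 0.88, FDR 0.0335). The deposited folds at the 2 starts lay close to each other, while the short transcript's start had the higher level in both groups.

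PHC3, the paralogue of PHC2, had a promoter region and an intronic one. The promoter region, chr3:169899332-169899732, had 29.5 reads in the control and 52.6 in the knockdown, with a log2 fold of 0.72 (FDR 0.0204). The other region lay in intron 7 of 14, 48.9 kb into the gene at chr3:169850167-169850567, with 10.0 and 26.6 reads over the same width. Its log2 fold of 1.10 (FDR 0.00366) was the largest among canonical members. The intron was thus less accessible than the promoter in both groups and had the larger deposited fold.

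SCML2, a Sex comb on midleg homologue with MBT repeats that associates with PRC1, had 1 region, at its promoter. The region, chrX:18372033-18373063, was the widest of the 15 at 1031 bp and reached from 219 bases before the start to 811 after it. The authors' means were 12.2 reads in the control and 32.4 in the knockdown, with a log2 fold of 1.12 and the lowest FDR of the members, 0.00195. Per 100 bp its levels were 1.18 and 3.14 reads, the lowest of all the members' promoter regions in each group, beside 24.8 and 39.9 at CBX8. SCML2 had the largest fold of any member promoter, and CBX8 the smallest.

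Variant subunits BCOR, BCORL1, KDM2B, RYBP and YAF2 held 9 regions, of which 5 were promoters and 4 intergenic. RYBP, which takes the place of CBX in variant PRC1 and stimulates its activity on histone H2A, had 3, the most of any member, and all lay upstream of the same start. The promoter region, chr3:72496177-72496577, began 403 bases upstream, with 18.4 reads in the control and 36.1 in the knockdown (log2 fold 0.81, FDR 0.0215). At 36.2 kb upstream, chr3:72532004-72532404, the deposited means were 3.99 and 11.4 reads (log2 fold 0.91, FDR 0.0482). At 172 kb upstream, chr3:72667844-72668244, they were 2.73 and 13.2 reads (log2 fold 1.32, FDR 0.00449). The 2 distal regions had the lowest levels of the 11 narrowest member regions, which share a single width, and the promoter stood well above them in both groups. No other gene had a listed region within 100 kb of any of the 3, and assignment to RYBP rests only on distance from a transcription start.

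The deposited log2 folds are smaller in size, whatever their sign, than the log2 differences of the deposited means, in these and in all 8815 listed regions. For the RYBP region 172 kb upstream the ratio of the means was 4.84, while the deposited fold was 2.51 on the linear scale. For CBX8, with many more reads, the 2 values were 1.61 and 1.54. Over the 15 regions the median log2 difference of the means was 1.10, beside a median deposited fold of 0.88.

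YAF2, the paralogue of RYBP, had 2 neighbouring regions at its start, only 53 bp apart. The region over the start, chr12:42631959-42632603, had 18.8 reads in the control and 40.4 in the knockdown (log2 fold 0.91, FDR 0.0103). The next, chr12:42631206-42631905, began 249 bases into the gene and had 19.3 and 39.2 reads (log2 fold 0.83, FDR 0.0178). They had near-equal levels in both groups and may be counted as 1 open domain, which would leave 14 regions. RYBP and YAF2 thus both changed at their promoters, and distal regions were listed for RYBP and not for YAF2.

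KDM2B, the CpG-binding demethylase that recruits variant PRC1, had a region at the promoter of a shorter transcript and an intergenic one. The promoter region, chr12:121905086-121905718, had 35.3 reads in the control and 57.4 in the knockdown. Per 100 bp that is 5.57 and 9.07 reads, the highest of the variant members in the control and below only BCORL1 (9.77) in the knockdown. Its log2 fold was 0.63 (FDR 0.0378), the lowest of the variant members. The start it covers was not matched to a RefSeq window by length, and belongs to a transcript annotated from 121866900 to 121905103. In GRCh38.p14, RefSeq gives KDM2B a window at chr12:121467329-121467628 and others further upstream, between 121579610 and 121581273. No listed KDM2B region lay at those upstream starts. The other region, chr12:121862955-121863355, had 6.81 and 17.3 reads (log2 fold 0.93, FDR 0.0272). It is annotated as distal, 18.7 kb from the start of a still shorter transcript at 121882075, but lay 3545 bp beyond that transcript's 3′ end.

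BCOR and BCORL1, corepressors that pair with PCGF1 in the KDM2B complex, had 1 region each, neither of them over a transcription start. The BCOR region, chrX:40034804-40035204, lay inside the gene, 1.38 kb past the start, with 13.6 reads in the control and 26.6 in the knockdown (log2 fold 0.79, FDR 0.0339). The BCORL1 region, chrX:129194387-129194787, had 21.7 and 39.2 reads (log2 fold 0.71, FDR 0.0458). The annotation places it 35.4 kb from a BCORL1 start, and it lay 2329 bp beyond the transcript's 3′ end. In the RefSeq table the next protein-coding gene on that side is ELF4, so the region lies between BCORL1 and ELF4 and its assignment rests on distance alone. BCOR and BCORL1 lie on the X chromosome, as does SCML2, and 3 of the 15 regions (20.0%) were there, beside 3.62% of all increased regions. That share follows from which genes are members, and nothing is read from it.

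**Figure D2:**
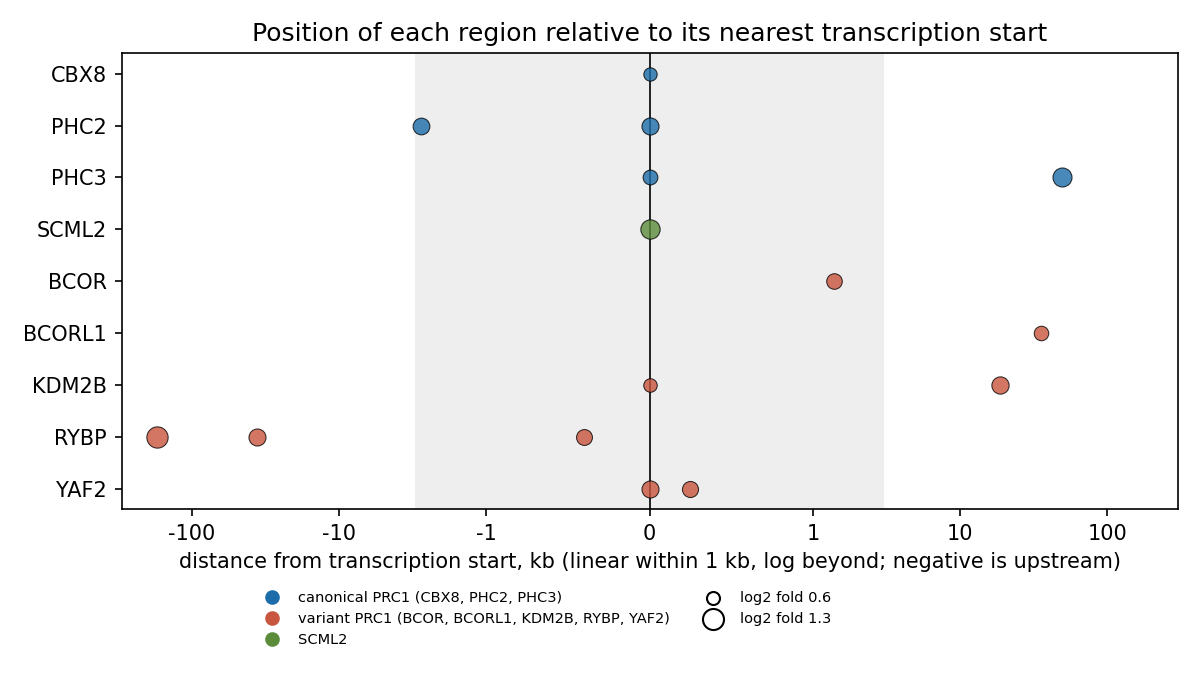
Distance of each region from the nearest annotated transcription start in kb (linear within 1 kb and logarithmic beyond, negative upstream), 1 row per gene, with point area rising with the deposited log2 fold and the 3 kb promoter span shaded. Points at 0 are regions that cover the start, and the largest point is the RYBP region 172 kb upstream.

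Canonical and variant subunits are set side by side here as descriptions, since members are not replicates of a condition. The median log2 fold was 0.88 over the 5 canonical regions (0.62 to 1.10) and 0.83 over the 9 variant regions (0.63 to 1.32). The canonical range lay almost fully within the variant one, which reached higher. Median levels were 17.0 reads in the control and 36.5 in the knockdown for canonical regions, and 18.4 and 36.1 for variant regions. Canonical members had no intergenic region among 5 and variant members had 4 among 9, at BCORL1, KDM2B and RYBP, and this was not tested. Intergenic regions made up 26.7% of the 15 member regions, beside 26.8% of all increased regions, so the members as a whole sit at that share. Over the wider list described below, 1 of 9 canonical regions, at SCML4, and 5 of 20 variant regions were intergenic. Both of these counts include the members, and SCML2 is there counted as canonical. Promoter regions of all members had a median log2 fold of 0.82 and the 5 other regions 0.93, beside 0.89 and 1.02 over all increased regions of each kind.

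Weakly accessible regions had the larger folds among the members. Across the 15 regions the Spearman correlation of fold with the mean over all libraries was −0.74, and across the 8615 increased regions it was −0.46. Regions of a gene share a locus, both measures come from the same reads, and the listing itself shapes the relation. The smallest fold listed among increased regions was 0.85 where the mean was under 10 reads, 0.65 from 10 to 30 reads and 0.59 above. The last value may reflect a limit on the fold in the lists, so shares of smaller folds below hold for listed regions only. Of the members, 2 regions were under 10 reads (0.91 and 1.32), 10 lay between (0.71 to 1.12) and 3 were above 30 (0.62 to 0.72). The KDM2B promoter fold was larger than only 1.93% of increased folds and that of CBX8 than 1.40%, whereas the RYBP region 172 kb upstream exceeded 91.8%.

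**Figure D3:**
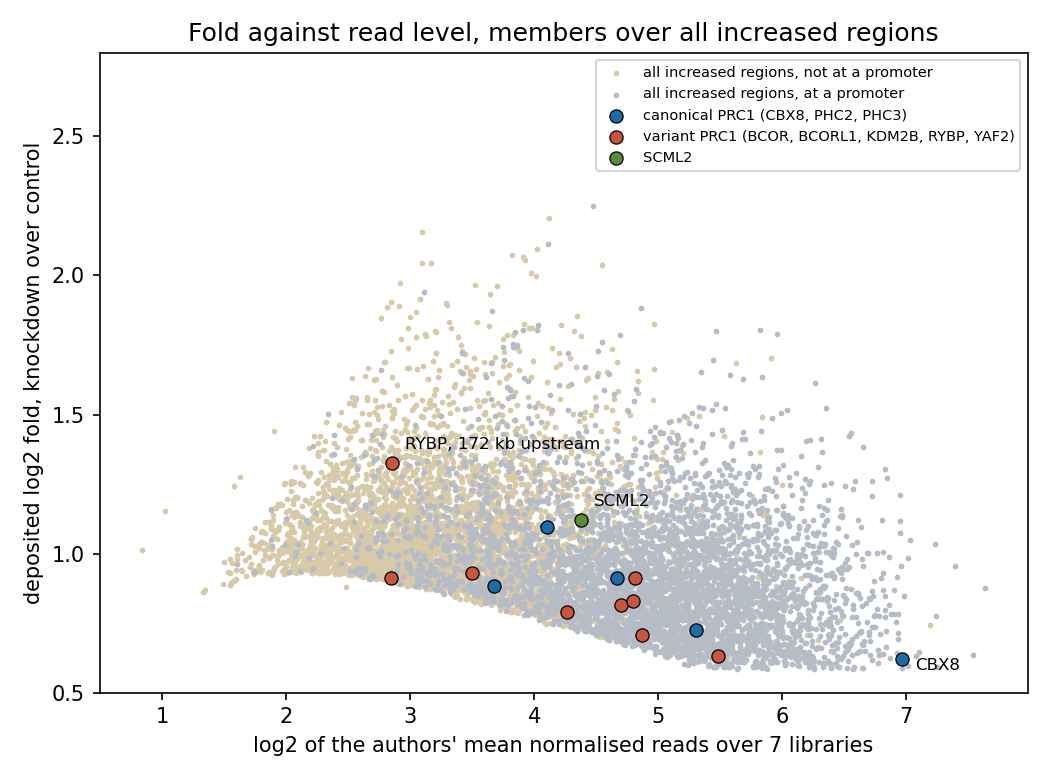
Deposited log2 fold against log2 of the authors' mean reads over 7 libraries, with small points for all 8615 increased regions (grey at promoters, sand elsewhere) and large points for the 15 member regions by complex. The members run from the RYBP region (fold 1.32, few reads) to CBX8 (0.62, many reads), and the empty lower left is where folds did not reach the list.

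Of 43 genes on a wider list of PRC1 subunits and partners, 19 had an increased region (44.2%) and 0 a decreased one, beside 25.2% of protein-coding genes with an increased region. The 9 members are among the 19 and were chosen for it. Without them 10 of 34 genes remained (29.4%), near that background. Promoters were involved in 16 of the 43 genes, and in 8 of the 34, beside 17.5% of protein-coding genes. The catalytic core, RING1 and RNF2, had no listed region, nor did BMI1, PCGF1, PCGF2, PCGF3, PCGF5 or PCGF6, which set the type of complex. Genes were matched by symbol, and PCGF3-AS1, the antisense gene at PCGF3, had an increased promoter region (log2 fold 0.86). CBX2, CBX6, CBX7, PHC1, SCMH1 and SCML1 were not listed either. Absence from the lists does not show that a locus kept its accessibility.

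Among the other canonical genes SCML4, a relative of SCML2, had an intronic region with 20.5 and 66.4 reads and the largest fold of the wider list (1.49, FDR 5.5e-07), and a further region 61.2 kb from its start (1.05). Partners of variant PRC1 with increased promoters included CBX3 (1.43) and SKP1, a ubiquitin ligase adaptor found with KDM2B (1.18). The DNA-binding proteins MAX (0.85 and 0.79) and E2F6 (0.70) and also FBRSL1 (0.91 and 0.78) had increased promoters. So did the histone deacetylase HDAC2 (0.67) and the kinase subunit CSNK2A1 (0.67). HDAC2 also had an intronic region (1.23), and AUTS2 a region 105 kb upstream (1.10). CBX3 and AUTS2 lie on chromosome 7, which holds 12.1% of all increased regions. None of the 15 member regions lie there, which again follows from the choice of genes.

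**Figure D4:**
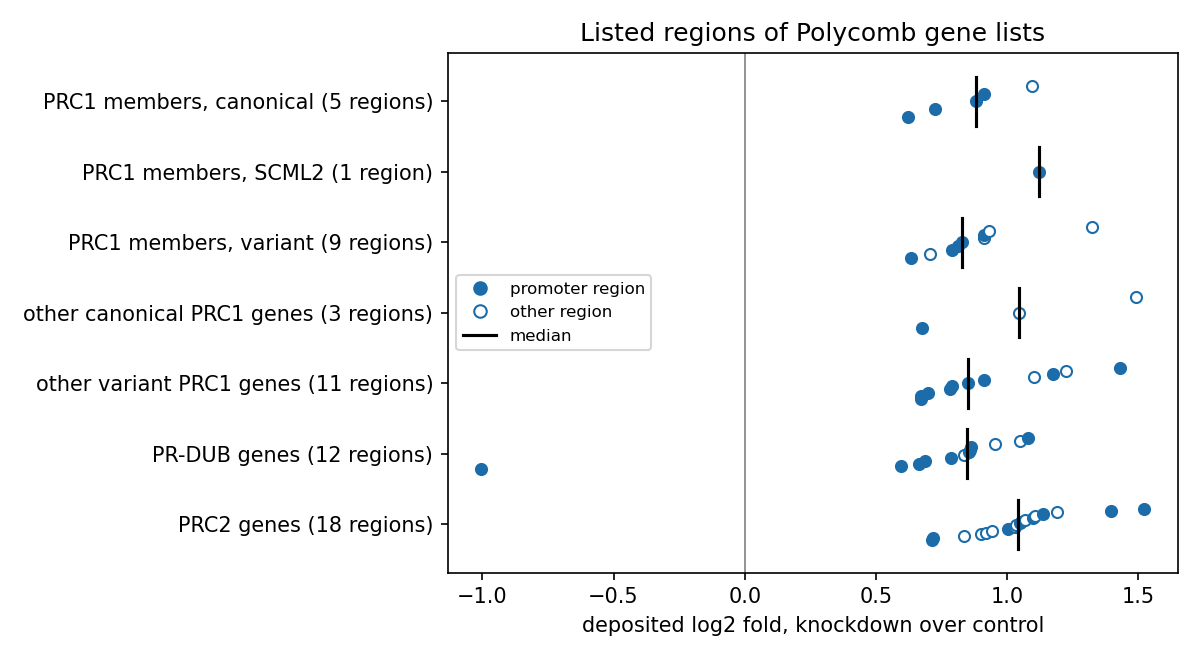
Deposited log2 fold of every listed region of the Polycomb gene lists, filled where the region is at a promoter and open elsewhere, with a black line at each list's median. All PRC1 regions lie to the right of 0. The point on the left (−1.01) is a FOXK2 region just upstream of an annotated start. FOXK2 is among the genes of the complex that removes the PRC1 mark.

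Within 100 kb of 5 of the 15 regions (33.3%) there was a listed region of another gene, beside 38.7% of all increased regions. Among them were regions of PRKCI and GPR160 near PHC3 and of GXYLT1 near YAF2, all of them increased. BCOR, BCORL1, KDM2B, PHC2, RYBP and SCML2 had none. Of the line's surface and granule markers KIT, CD34, CD33 and MPO, KIT and CD34 had 2 increased regions each, which gives no check of the line's identity, since levels of unlisted regions were not analysed here.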

How the data were processed

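ATAC-seq of 7 Kasumi-1 libraries, 4 control and 3 knockdown by their titles, was analysed from the authors' lists of increased and decreased regions. Per the file headers, each region carries log2 means of normalised reads over all libraries and per group, a log2 fold, a p-value and an FDR, all computed by the authors and deposited as such. Per the submitters' processing notes, MACS2 2.2.6, Bowtie2 2.4.1, deepTools 1.5.12 and Picard 2.2.4 were used, in roles that are not stated. How reads were normalised and shifted for the transposase, and with which tool folds were computed, is not given in the sources used here. Each could move the levels and the share of regions listed as increased. The group columns carry abbreviations and were identified from their content and the lists' names: the knockdown column is the higher in the increased list, and the overall mean weighted the knockdown column by a median of 0.429, as 3 of 7 libraries would, and 98.5% of regions lay within 0.001 of it.

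Both lists were pooled, and regions were taken by gene symbol with Python 3.11.15, pandas 2.3.3, numpy 2.4.6 and matplotlib 3.10.9. Every region of every member is named, with other listed genes of the wider PRC1 list, except a gene that is not reported here. The members and lists were chosen with earlier results of these data known, and no test was made, since there are no values per library. Multiplying p by 52675 and dividing by the FDR gave a whole number (within 0.002) in 67% of the 200 regions written to full precision, which is taken as the number tested. This step and the motif search were tested on simulated data. Background shares of genes use the 20056 protein-coding genes of RefSeq GRCh38.p14, matched by gene identifier. Alternatives varied the FDR, fold, read and distance limits, the promoter width and the grouping of members.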

Additional observations from a re-analysis of the deposited data

How the results depend on the processing

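Counts depended on the threshold. With an FDR of at most 0.01, 4 regions of members remained, at PHC2, PHC3, RYBP and SCML2, of which 2 were promoter regions of 2 members, 2 belonged to canonical and 1 to variant members, and 10 genes of the wider list kept a region. Where the log2 fold had to reach 1, 3 regions remained, at PHC3, RYBP and SCML2, with 1 member promoter, 1 canonical and 1 variant region and 8 genes of the wider list. Within 10 kb of a start the variant members kept 5 of their 9 regions. The other 30 values stayed within 1.5 times the reported ones, among them the median log2 fold of the members, which ranged from 0.82 to 1.12. The upper end is the median of regions kept for a log2 fold of at least 1, so the limit itself raises it. Counting regions under 1 kb apart once was added after seeing the data. No paired analysis was possible because the lists hold group means and no value per library, and for the same reason no library was left out. Read depth per library is unknown here, and the lowest member levels, at the distal RYBP regions, rest on means of under 4 reads in the control.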

Other observations

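PR-DUB is the complex that removes the ubiquitin PRC1 places on histone H2A. Of its 11 genes and partners, 9 had an increased region (81.8%), beside 25.2% of protein-coding genes, and 7 had one at the promoter. The promoters of HCFC1, a chromatin cofactor (log2 fold 1.08), KDM1B, a histone demethylase (0.86), FOXK1 (0.86), OGT, the O-GlcNAc transferase (0.79), ASXL2 (0.69), MBD6 (0.66) and ASXL1, a gene often mutated in myeloid leukaemia (0.59), were more accessible in the authors' deposited table. MBD5 had an intronic region (1.05) and a distal one (0.86). The deubiquitinase BAP1 and ASXL3 had no listed region. FOXK2, a forkhead factor that binds BAP1, went both ways. Its region 22.2 kb upstream rose from 25.0 reads in the control to 53.3 in the knockdown (0.96), while a region just upstream of an annotated start fell from 35.1 to 13.9 reads (log2 fold −1.01, FDR 0.00552). It was the only decreased region among the genes of the PRC1, PRC2 and PR-DUB lists. The list was drawn up with earlier results of these data known, and its share was not tested.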
